A study of Homo sapiens with 25 samples.

Results

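Hypoxia and HIF1A target genes are described here across chromatin lists of MDA-MB-231, a breast cancer cell line of human origin that lacks oestrogen, progesterone and HER2 receptors. The group holds 32 named genes of 19970 protein-coding genes. They were chosen by name from textbook knowledge of the oxygen response, not by a threshold on values, but with earlier results of these data known. The group comprises 7 genes of oxygen sensing and regulation, 10 of glucose use, 2 of pH control, 5 of mitophagy and cell stress, 5 of collagen and matrix processing, and 3 that encode secreted factors. Chromatin immunoprecipitation followed by sequencing had been run in 25 libraries. PML, the protein that builds the nuclear bodies of that name, was profiled in 3 libraries with no condition in their titles. Lamin B1 (LMNB1), H3K9me3, H3K27me3, H3K4me3 and H3K27ac were each profiled in 2 control libraries and 2 PML knockdown libraries, with 1 input library per condition. The knockdown was made with a lentiviral short hairpin RNA against PML. Neither the hairpin sequence nor the control vector is given in the labels. All cells were of the same line, in serum-containing medium in a standard incubator, and no group is labelled as exposed to low oxygen.

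The deposited results used here are 9 lists, 1 for each target and condition. The 4 peak lists give H3K4me3, a mark of promoters, and H3K27ac, a mark of active promoters and enhancers, in control and knockdown cells. The files of the peak lists mark conditions as ct and pml, which are read here as control and PML knockdown. The 5 domain lists give broad regions of PML, LMNB1 and H3K9me3, with LMNB1 and H3K9me3 profiled in each condition. H3K27me3 was not analysed here. The lists carry neither replicate values nor read depth, and for this reason a difference between control and knockdown cannot be set against replicate spread, and no test was made. Where a list lacks a peak or domain, the signal did not reach the authors' threshold, and it may still be present. Each fold below is the authors' fold enrichment at a peak, on a linear scale. A promoter's fold is that of the strongest peak overlapping it and its width that of the widest, which can be different peaks, and the summit can lie outside the promoter. Folds of the control and knockdown lists are not on a common scale, so they are printed side by side and no change is read from them. Coordinates are in hg38.

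Hypoxia-inducible factor 1 is a pair of proteins, HIF1A and ARNT, that binds a short core sequence in DNA. When oxygen is plentiful, prolyl hydroxylases such as EGLN1 and EGLN3 mark HIF1A for destruction through VHL, and when oxygen is low HIF1A accumulates and activates genes that shift metabolism to glycolysis, slow mitochondrial respiration, remodel collagen and attract blood vessels. In breast cancer the response has long been studied in connection with invasion and metastasis. HIF1A can be active in cancer cells also at normal oxygen, and none of the lists measures HIF1A binding.

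The core bound by hypoxia-inducible factors is ACGTG or GCGTG on either strand, and matches to it were common in these promoters. Promoter sequences of 300 bases, 250 before and 50 after the start, were found in RefSeq (GRCh38.p14) for 28 of the 32 genes. VEGFA, BNIP3L, NDRG1 and LOXL2 had no entry in that table. Of the 28, 23 held at least 1 match, and 56.2% of all 15315 promoters in the table did. Overlapping matches counted as 1 site, and 12 of the 28 promoters held at least 2 sites, where 25.1% of all promoters did. Among promoters with an H3K4me3 peak in the control list the shares were 64.4% and 31.1%. A match describes the sequence and does not show binding. The 6 promoters below are those on which the results turn, CA9, ANGPTL4 and LOX for the marks they lacked in some list, PLOD2 for its place inside a domain, and PGK1 and KDM3A for the strongest peaks of H3K4me3 and H3K27ac in the group. Each is printed 5′ to 3′ along the gene, and capitals mark the core matches.
CA9, plus strand, chr9:35673678-35673977: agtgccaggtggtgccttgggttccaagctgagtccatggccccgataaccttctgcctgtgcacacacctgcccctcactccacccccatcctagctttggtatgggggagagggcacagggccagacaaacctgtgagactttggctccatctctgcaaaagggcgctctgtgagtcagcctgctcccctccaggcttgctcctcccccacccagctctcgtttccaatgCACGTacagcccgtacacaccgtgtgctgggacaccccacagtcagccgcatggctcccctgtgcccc
ANGPTL4, plus strand, chr19:8363905-8364204: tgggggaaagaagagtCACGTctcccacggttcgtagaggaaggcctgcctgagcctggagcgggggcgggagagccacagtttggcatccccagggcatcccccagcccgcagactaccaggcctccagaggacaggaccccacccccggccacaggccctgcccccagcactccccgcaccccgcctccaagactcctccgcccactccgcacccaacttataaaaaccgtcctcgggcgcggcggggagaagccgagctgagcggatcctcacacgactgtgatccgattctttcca
LOX, minus strand, chr5:122078210-122078509: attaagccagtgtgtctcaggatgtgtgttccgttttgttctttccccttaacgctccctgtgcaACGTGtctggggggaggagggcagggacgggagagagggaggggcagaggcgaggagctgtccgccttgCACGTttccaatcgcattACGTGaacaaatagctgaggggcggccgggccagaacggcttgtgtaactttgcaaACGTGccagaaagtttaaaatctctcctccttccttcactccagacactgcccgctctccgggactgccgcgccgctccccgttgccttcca
PLOD2, minus strand, chr3:146161135-146161434: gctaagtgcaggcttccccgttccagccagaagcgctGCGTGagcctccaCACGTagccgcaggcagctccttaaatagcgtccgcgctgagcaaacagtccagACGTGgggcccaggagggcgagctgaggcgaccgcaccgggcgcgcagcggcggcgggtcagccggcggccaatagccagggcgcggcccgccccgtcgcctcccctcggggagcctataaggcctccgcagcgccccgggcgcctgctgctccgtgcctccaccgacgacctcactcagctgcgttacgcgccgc
PGK1, plus strand, chrX:78103998-78104297: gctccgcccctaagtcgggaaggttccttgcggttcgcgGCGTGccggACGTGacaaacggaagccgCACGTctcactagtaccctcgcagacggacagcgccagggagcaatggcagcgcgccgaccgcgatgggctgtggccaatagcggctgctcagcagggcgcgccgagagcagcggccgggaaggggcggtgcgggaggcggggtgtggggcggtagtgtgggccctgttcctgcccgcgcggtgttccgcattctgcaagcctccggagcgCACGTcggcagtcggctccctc
KDM3A, plus strand, chr2:86441121-86441420: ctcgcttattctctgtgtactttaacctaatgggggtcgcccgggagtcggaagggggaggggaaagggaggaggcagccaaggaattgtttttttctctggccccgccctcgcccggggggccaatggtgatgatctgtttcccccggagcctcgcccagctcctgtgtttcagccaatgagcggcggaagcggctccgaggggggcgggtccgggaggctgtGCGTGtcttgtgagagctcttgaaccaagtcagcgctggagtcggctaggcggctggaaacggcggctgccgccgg

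The printed promoters differed in the number of cores. LOX and PGK1 each held 4 sites, PLOD2 held 3, and CA9, ANGPTL4 and KDM3A held 1 each. LOX and PGK1, with equal numbers of sites, had control H3K27ac folds of 4.90 and 13.8, and a relation between site number and fold was not tested. BNIP3, a mitophagy receptor, held 5 sites, the highest number in the group. EGLN3, MXI1, TPI1, PDK1 and P4HA2 held none in these windows. For PFKFB3, ALDOA, PDK1 and P4HA2 the RefSeq start differs from the start used for the marks. In the same 300-base window at that start, read from the genome for all genes, 28 of the 32 held a match and 15 held at least 2 sites, beside 56.4% and 25.3% of all genes and 65.4% and 31.9% of those with an H3K4me3 control peak. This window was added after the first counts were seen. It held a median of 30 CpG in the group and 23 over all genes, and the part of base composition in the motif counts was not tested. CA9 stood apart with 7 CpG in its window, the lowest count of the group.

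The lists were first checked against the labels of the line. A promoter is the start of the canonical transcript with 1 kb on either side, and a peak that overlaps it by 1 bp marks it. The mesenchymal and basal markers VIM, CD44, CAV1, ZEB1, FN1 and EGFR were marked by H3K4me3 and H3K27ac in all 4 lists, 6 of 6. Of the luminal and epithelial markers ESR1, PGR, GATA3, FOXA1, CDH1 and EPCAM, none carried H3K27ac in the control list and 1, EPCAM, did in the knockdown list. H3K4me3, however, marked 3 of these 6 in control cells and 4 in knockdown cells, the additional gene being PGR. The peak lists held 22211 and 27760 peaks of H3K4me3 and 42320 and 43615 peaks of H3K27ac, control before knockdown, an order kept in each pair of values below.

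Most of the genes, 26 of 32, carried both active marks at their promoters in both conditions, where 49.1% of all genes did. H3K4me3 marked 30 of 32 in control and 31 in knockdown cells, beside 61.8% and 63.7% of all protein-coding genes. H3K27ac marked 27 and 26, beside 50.8% and 53.7%. The other 6 lacked a mark in at least 1 list. CA9 had no promoter peak in any list, ANGPTL4 had H3K4me3 in the knockdown list alone, MXI1, PFKFB3 and CA12 had H3K4me3 without H3K27ac, and LOX had H3K27ac in the control promoter alone. Of all promoters with H3K4me3, 19.5% in the control lists and 17.2% in the knockdown lists had no H3K27ac.

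A promoter was counted as marked in 1 list only when, in addition, its peak overlapped no peak of the other list outside the promoter. By that rule 1 gene, ANGPTL4, had an H3K4me3 peak in the knockdown list only, beside 1.79% of all genes, and none was marked in the control list only, beside 0.0951%. For H3K27ac none was marked in 1 list only, beside 0.666% for control and 3.24% for knockdown. LOX did not count because the second of its 2 control peaks overlapped a knockdown peak that lay outside the promoter. With 32 genes, a share near these backgrounds would give 0 or 1 gene, so the counts for single lists do not set the group apart.

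**Figure D1:**
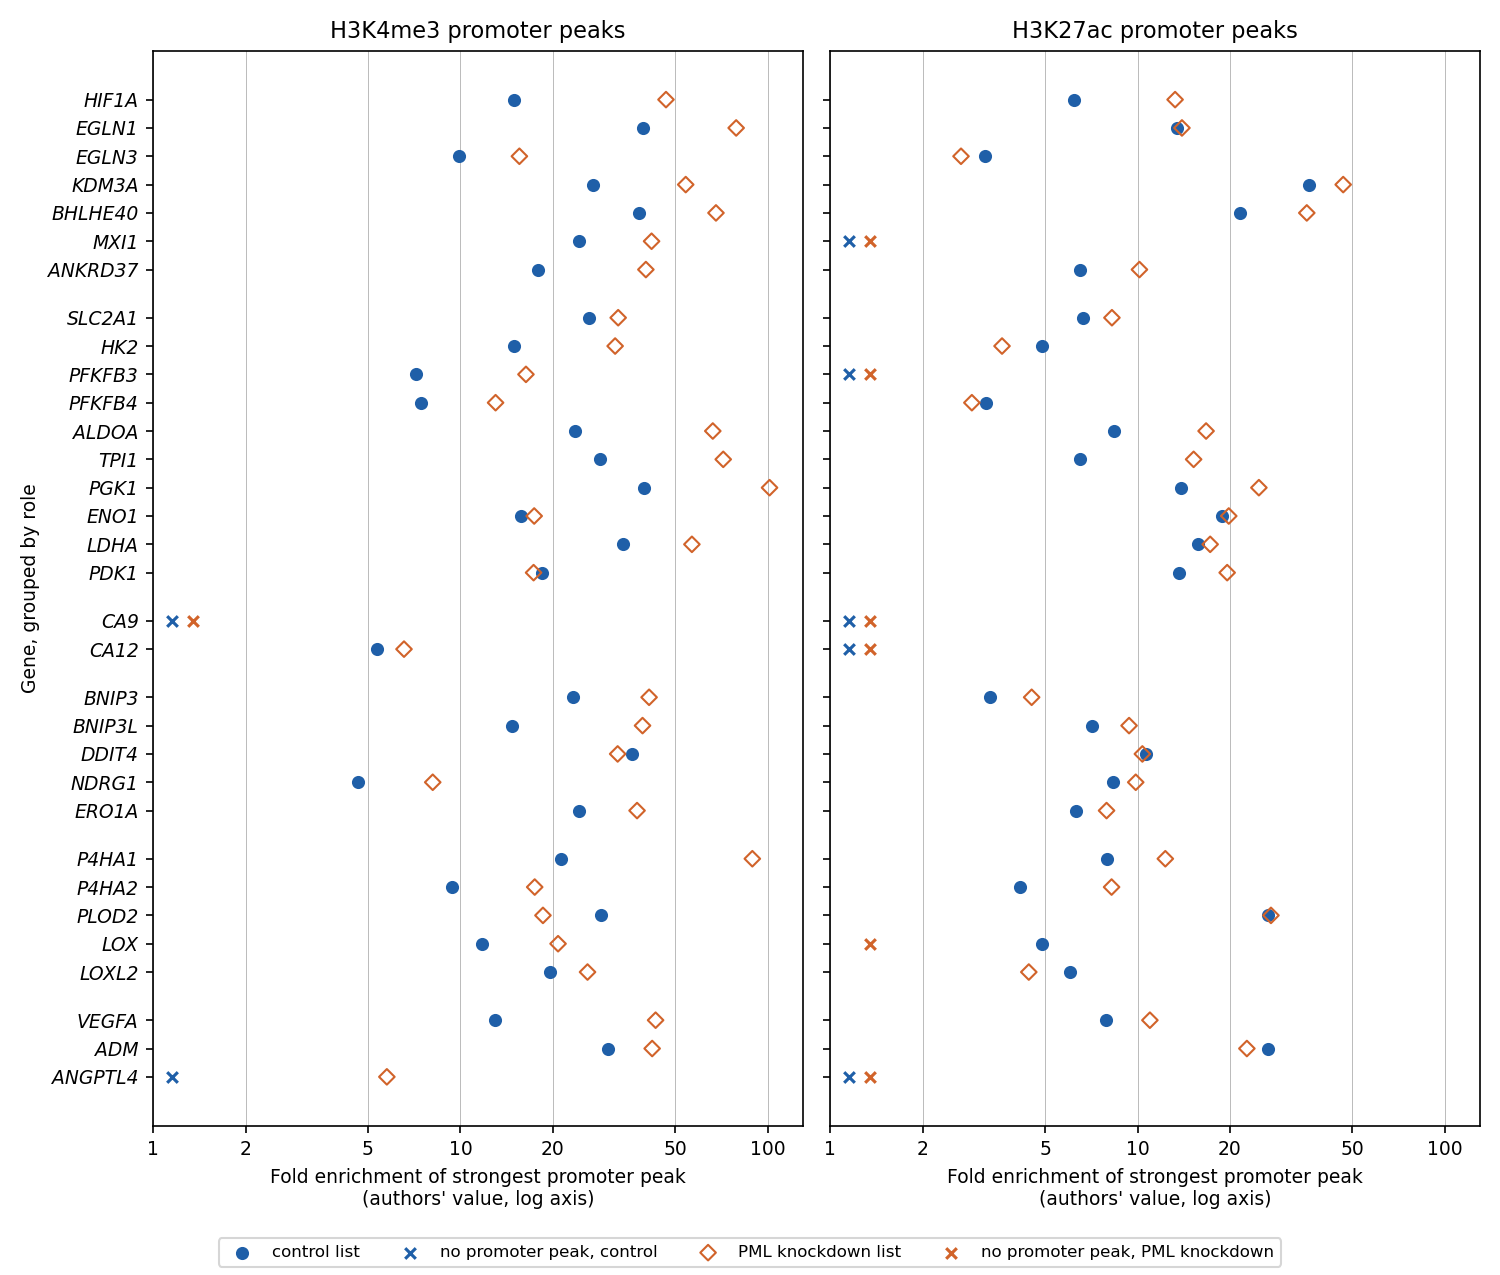
Fold enrichment of the strongest promoter peak of each of the 32 genes (rows, grouped by role) for H3K4me3 on the left and H3K27ac on the right, on log axes of the authors' fold, with filled circles for control, open diamonds for PML knockdown, and crosses at the left edge for promoters without a peak. PGK1 has the highest H3K4me3 fold and KDM3A the highest H3K27ac fold in both lists, and CA9 shows crosses alone.

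Among the genes of oxygen sensing and regulation, all 7 had H3K4me3 in both lists and 6 had H3K27ac in both. For this class and those below, the shares over all genes are 61.8% and 63.7% for H3K4me3 and 50.8% and 53.7% for H3K27ac. HIF1A (ENSG00000100644.17, chromosome 14, 61695513 to 61748259), the oxygen-regulated subunit itself, had H3K4me3 folds of 15.0 and 46.7 and H3K27ac folds of 6.22 and 13.3. Its H3K4me3 peaks were 6709 and 7643 bp wide, at percentiles 99.8 and 99.7 of width in the lists. EGLN1, the main prolyl hydroxylase that tags HIF1A in normal oxygen, had H3K4me3 folds of 39.2 and 78.9 and H3K27ac folds of 13.4 and 14.0. EGLN3, a related hydroxylase that HIF1A induces, lay far lower, with H3K4me3 folds of 9.89 and 15.6 and H3K27ac folds of 3.19 and 2.66. EGLN1 stood above EGLN3 in each list, but its H3K4me3 summits lay 1230 and 1330 bp downstream of the start, outside the promoter. The other H3K4me3 promoter peak of EGLN1 had folds of 25.9 and 35.9. The EGLN3 H3K27ac peaks had -log10 q of 4.45 and 3.56, and at a -log10 q of at least 5 EGLN3 counted as without H3K27ac in both lists.

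KDM3A, a demethylase of H3K9 that is itself a HIF target, had the strongest H3K27ac of the group, with folds of 36.2 and 46.7 and peaks 3183 and 3266 bp wide. Its H3K4me3 folds were 26.9 and 54.1. BHLHE40, a transcriptional repressor, had H3K4me3 folds of 38.04 and 67.9 and H3K27ac folds of 21.6 and 35.6. Its H3K27ac summits lay at -1930 and -1913 bp from the start, outside the promoter. Its H3K4me3 peaks were 5409 and 10776 bp wide, the widest of the group in the knockdown list, and its widest H3K27ac peaks, 8135 and 8306 bp, were separate from those with the highest folds and had folds of 15.3 and 25.7. ANKRD37, a small ankyrin repeat protein, had H3K4me3 folds of 17.9 and 40.1 and H3K27ac folds of 6.49 and 10.1, but its promoter window also holds the start of LRP2BP 917 bp away, so its peaks cannot be assigned to 1 gene.

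MXI1, an antagonist of MYC, had H3K4me3 folds of 24.3 and 41.9 and no H3K27ac peak in its promoter in either list. The H3K4me3 summits lay 2933 and 3009 bp downstream of the start, outside the promoter, so these folds do not measure its promoter. Weak H3K27ac peaks, with folds of 2.91 and 4.10, lay at another annotated start 2626 bp downstream. MXI1 has 26 annotated starts, and the promoter window was set at 1 of them.

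The genes of glucose use had H3K4me3 at all 10 and H3K27ac at 9 in both lists. The whole group had 30 and 31 of 32 with H3K4me3 and 27 and 26 with H3K27ac. PGK1 (phosphoglycerate kinase, chromosome X) had the highest H3K4me3 of the group, with folds of 39.5 and 101.4, and H3K27ac folds of 13.8 and 24.8. LDHA, which turns pyruvate into lactate, had H3K4me3 folds of 33.8 and 56.7 and H3K27ac folds of 15.7 and 17.2. ENO1, enolase, had H3K4me3 folds of only 15.8 and 17.4 but peaks 5932 and 7868 bp wide, and H3K27ac folds of 18.8 and 19.8 with peaks 8151 and 8253 bp wide. For the enolase gene width and fold thus ranked the promoter differently.

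TPI1, triosephosphate isomerase, had H3K4me3 folds of 28.5 and 71.7 and H3K27ac folds of 6.51 and 15.2. The knockdown folds belong to peaks whose summits lay 5358 and 5590 bp downstream of the start, beyond the end of TPI1 at 6870948, so they do not measure its promoter. ALDOA, aldolase, had H3K4me3 folds of 23.7 and 66.3 and H3K27ac folds of 8.36 and 16.7. TPI1 and ALDOA lie near other acetylated promoters, with 4 and 3 H3K27ac peaks at promoters of neighbouring genes within 50 kb in the control list. PDK1, the kinase that shuts off pyruvate dehydrogenase, had H3K4me3 folds of 18.4 and 17.3 and H3K27ac folds of 13.6 and 19.6.

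SLC2A1, the main glucose transporter, had H3K4me3 folds of 26.2 and 32.6 and H3K27ac folds of 6.66 and 8.26. The summits behind these folds lay outside the promoter, 1551 and 1530 bp downstream of the start for H3K4me3 and 8158 and 1562 bp for H3K27ac. SLC2A1 had a second H3K4me3 promoter peak in each list, with folds of 12.5 and 21.6. Its widest H3K27ac promoter peak was 10410 and 1506 bp, the widest H3K27ac promoter peak of the group in the control list and one of middling width in the knockdown list. That control peak ran from 42947736 to 42958145 on chromosome 1, and the knockdown list held a peak from 42956652 to 42958157. The number of H3K27ac peaks within 50 kb of the start was 10 and 12, and they covered 32232 and 35396 bp. Of all promoters marked in both lists, 70.8% had a wider H3K27ac peak in the knockdown list, and SLC2A1 was among those that did not. The lists carry no replicate values, so no change at SLC2A1 is read from these lengths.

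HK2, hexokinase 2, had H3K4me3 folds of 15.0 and 31.9 and lower H3K27ac folds of 4.88 and 3.62. PFKFB4, which makes an activator of glycolysis, had H3K4me3 folds of 7.45 and 13.0 and H3K27ac folds of 3.20 and 2.89. PFKFB3, the related enzyme, had H3K4me3 folds of 7.17 and 16.3 and no H3K27ac at the start used here. It has 9 annotated starts, and H3K27ac peaks lay at those at -57998 bp, with folds of 4.59 in both lists, and -39099 bp, with folds of 4.13 and 4.17. The lack of H3K27ac at PFKFB3 therefore depends on which start is taken.

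Of the 2 pH genes, 1 had H3K4me3 in each list and none had H3K27ac in its promoter, a class too small to rank. CA9 (ENSG00000107159.14, chromosome 9, 35673928 to 35681159), a carbonic anhydrase on the cell surface that is widely used as a marker of hypoxia in tumours, had no promoter peak of either mark in either list. The H3K27ac peaks nearest to it lay at other genes, with summits at -8930 and -8933 bp from the start, at ARHGEF39, where the folds were 15.8 and 24.1. CA12, a second carbonic anhydrase of the cell surface, had weak H3K4me3 with folds of 5.33 and 6.55, and no H3K27ac in its promoter. H3K27ac peaks stood farther inside CA12, 33007 and 33052 bp downstream of its start, with folds of 8.54 and 10.8.

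The genes of mitophagy and stress carried both marks in both lists, 5 of 5, where 26 of 32 in the whole group and 49.1% of all genes did. BNIP3 had H3K4me3 folds of 23.3 and 41.1 beside narrow H3K27ac peaks of 433 and 422 bp with folds of 3.31 and 4.52. At a -log10 q of at least 5 the control peak is lost and BNIP3 counts as acetylated in the knockdown list only. Its relative BNIP3L had H3K4me3 folds of 14.7 and 39.1 and H3K27ac folds of 7.13 and 9.39. DDIT4, an inhibitor of mTORC1 signalling, had H3K4me3 folds of 36.2 and 32.5 and H3K27ac folds of 10.7 and 10.4. In this class BNIP3 had the lowest H3K27ac fold in both lists, and DDIT4 stood above it in both.

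NDRG1, named as a metastasis suppressor in several tumours, had weak H3K4me3 with folds of 4.65 and 8.12 and H3K27ac folds of 8.30 and 9.87. ERO1A, which drives disulphide bond formation in the endoplasmic reticulum, had H3K4me3 folds of 24.4 and 37.6 and H3K27ac folds of 6.33 and 7.93. NDRG1 had the lowest H3K4me3 fold of the marked genes in the control list.

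Of the matrix genes, all 5 carried both marks in the control lists and 4 did in the knockdown lists. P4HA1, a subunit of collagen prolyl hydroxylase, had H3K4me3 folds of 21.3 and 89.1 and H3K27ac folds of 7.95 and 12.3. Its relative P4HA2 lay lower, with H3K4me3 folds of 9.40 and 17.4 and H3K27ac folds of 4.15 and 8.23. LOXL2, a lysyl oxidase that crosslinks collagen, had H3K4me3 folds of 19.6 and 25.9 and H3K27ac folds of 6.04 and 4.43. PLOD2, the lysyl hydroxylase that stabilises collagen crosslinks, had H3K4me3 folds of 28.6 and 18.6 and strong, wide H3K27ac, with folds of 26.5 and 27.2 and widths of 5923 and 5911 bp.

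LOX (ENSG00000113083.15, chromosome 5, 122063195 to 122078413, minus strand), the lysyl oxidase that HIF1A induces in hypoxic breast cancer cells, was the 1 gene of the group whose promoter held H3K27ac in the control list and not in the knockdown list. H3K4me3 was present in both, with folds of 11.7 and 20.8 and widths of 2860 and 2696 bp. The control H3K27ac list held 2 promoter peaks. The one over the start ran from 122077983 to 122078941 (959 bp) with a fold of 4.90 and a -log10 q of 8.89, at percentile 43.0 of its list by fold, and no knockdown peak overlapped it. The other lay inside the gene, from 122076352 to 122077598 (1247 bp), with a fold of 2.94. The knockdown list held 1 peak here, from 122076572 to 122077119 (548 bp), with a fold of 3.65 and its summit 1258 bp downstream of the start, just outside the promoter window. A further control peak, 281 bp wide with a fold of 3.36, had its summit at -21141 bp, upstream of the start, and no counterpart.

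The 300 bases around the summit of the control peak over the LOX start are shown because they are the acetylated sequence that the knockdown list does not call. They overlap the LOX promoter printed above and are written on the plus strand, opposite to the gene, with core matches in capitals.
LOX summit window, plus strand, chr5:122078043-122078342: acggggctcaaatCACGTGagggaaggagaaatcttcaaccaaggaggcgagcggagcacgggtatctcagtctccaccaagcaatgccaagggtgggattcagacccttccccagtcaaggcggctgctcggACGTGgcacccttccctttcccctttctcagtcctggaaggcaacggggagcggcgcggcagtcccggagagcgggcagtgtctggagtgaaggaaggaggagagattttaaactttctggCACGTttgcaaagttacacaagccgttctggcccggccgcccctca
This window held 3 core sites, 1 of them, CACGTG, matching on both strands. With a promoter of 2500 bp on either side LOX was marked by H3K27ac in both lists, so the lists differ in where acetylation was called near the gene. With 500 bp on either side, with a -log10 q of at least 5, or by presence in the promoter alone, LOX counted as marked in the control list only. With any annotated start it was acetylated in both lists, since the knockdown peak lay in the promoters of starts 1036 and 1085 bp downstream.

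Of the secreted factors, VEGFA, which drives growth of blood vessels, had H3K4me3 folds of 12.9 and 43.2 and H3K27ac folds of 7.90 and 11.0. ADM, the vasoactive peptide adrenomedullin, had H3K4me3 folds of 30.2 and 42.1 and H3K27ac folds of 26.6 and 22.7. Its summits lay outside the promoter, at -1545 and -1546 bp for H3K4me3 and at -1487 and -1502 bp for H3K27ac. The control H3K27ac peak with the fold of 26.6 ended at 10304876, before the start at 10305073, and the next peak had a fold of 8.78. ADM had H3K4me3 peaks 7080 and 8540 bp wide, the widest of the group in the control list. The promoter of VEGFA was narrow by comparison, with H3K4me3 peaks of 1493 and 1659 bp.

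ANGPTL4 (ENSG00000167772.12, chromosome 19, 8363289 to 8374370), a secreted inhibitor of lipoprotein lipase that also loosens vessel walls, had no H3K4me3 promoter peak in the control list and a peak of 1267 bp with a fold of 5.76 in the knockdown list. That peak stood at percentile 29.3 of its list by fold. Upstream H3K27ac peaks had summits at -1727 and -1763 bp from the start, 861 and 959 bp wide with folds of 4.56 and 6.66, and so outside the promoter at the start used here. They lay in the promoter windows of 3 other annotated starts, at -744, -856 and -866 bp, and with any annotated start ANGPTL4 counted as acetylated in both lists. The knockdown list held 1 more H3K27ac peak within 50 kb, 3117 bp downstream of the start, 657 bp wide with a fold of 4.19, without a counterpart. A weak H3K4me3 peak with a fold of 3.23, also in the knockdown list alone, lay at the same site inside the gene. ANGPTL4 thus had H3K4me3 at its start and both marks inside the gene in the knockdown lists alone. Over the whole knockdown lists, 7436 of 27760 H3K4me3 peaks and 6762 of 43615 H3K27ac peaks had no counterpart, so such calls were common.

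**Figure D2:**
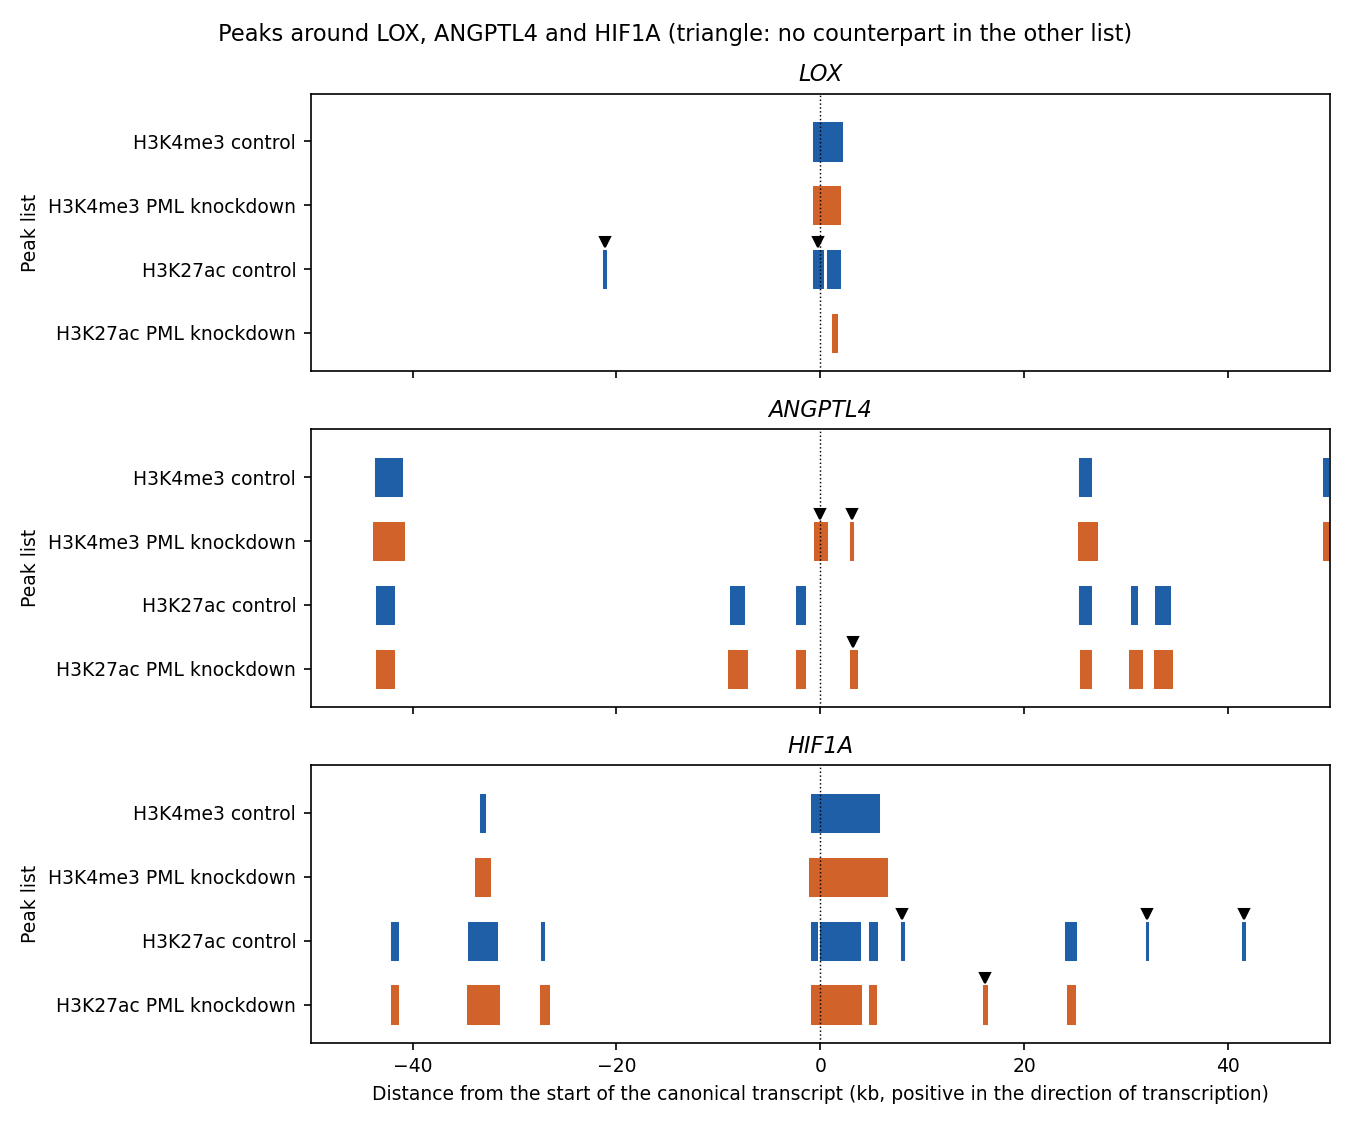
Peaks of H3K4me3 and H3K27ac within 50 kb of the starts of LOX, ANGPTL4 and HIF1A (horizontal axis, distance from the start in kb, positive along transcription; rows are the 4 lists; triangles mark peaks with no counterpart in the other condition). The H3K27ac peak over the LOX start and the H3K4me3 peak over the ANGPTL4 start each appear in 1 condition.

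The H3K4me3 peaks of these promoters were wide. The widest promoter peak had a median of 2921 bp over the 30 genes marked in the control list and 3182 bp over the 31 in the knockdown list, where all marked promoters had 1862 and 2220 bp. Of the genes, 17 of 30 and 19 of 31 had a peak in the widest 10% of their list, beside 20.1% and 23.3% of all marked promoters. This count was chosen after the widths were seen. By fold the group stood closer to other promoters, with 6 and 8 genes in the strongest 10%, beside 20% and 25.1%. The median fold percentile within the list was 77.0 and 80.2, where all marked promoters had 72.5 and 78.3.

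For H3K27ac the group also had wider promoter peaks than other genes, by fewer bp. The widest promoter peak had a median of 1822 and 2119 bp in the group and of 1292 and 1473 bp over all marked promoters. The median fold percentile was 67.6 and 73.0, beside 69.5 and 71.8 over all marked promoters, and 5 genes in each list stood in the strongest 10%, beside 20.3% and 22.1%. The strongest H3K4me3 promoter peaks had median summits 470 and 441 bp downstream of the start, beside 247 and 221 bp over all marked promoters. Summits outside the promoter are included in these medians. H3K27ac summits had medians of -256 and -272 bp, upstream of the start, where those of all marked promoters lay 123 and 121 bp downstream.

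Peaks were wider in the knockdown lists at most promoters of the genome, and the group followed this. Of the promoters marked in both lists, 95.1% had a wider H3K4me3 peak in the knockdown list and 70.8% a wider H3K27ac peak. In the group 27 of 30 and 18 of 26 did. The H3K4me3 exceptions were SLC2A1, LOX and CA12. The largest H3K4me3 widening in bp was at BHLHE40, from 5409 to 10776 bp. At TPI1 the values were 3012 and 7589 bp, but the knockdown peak ran to 6874311 on chromosome 12, past the end of the gene, and includes sequence outside TPI1. Which of these widths differ beyond replicate spread could not be assessed.

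**Figure D3:**
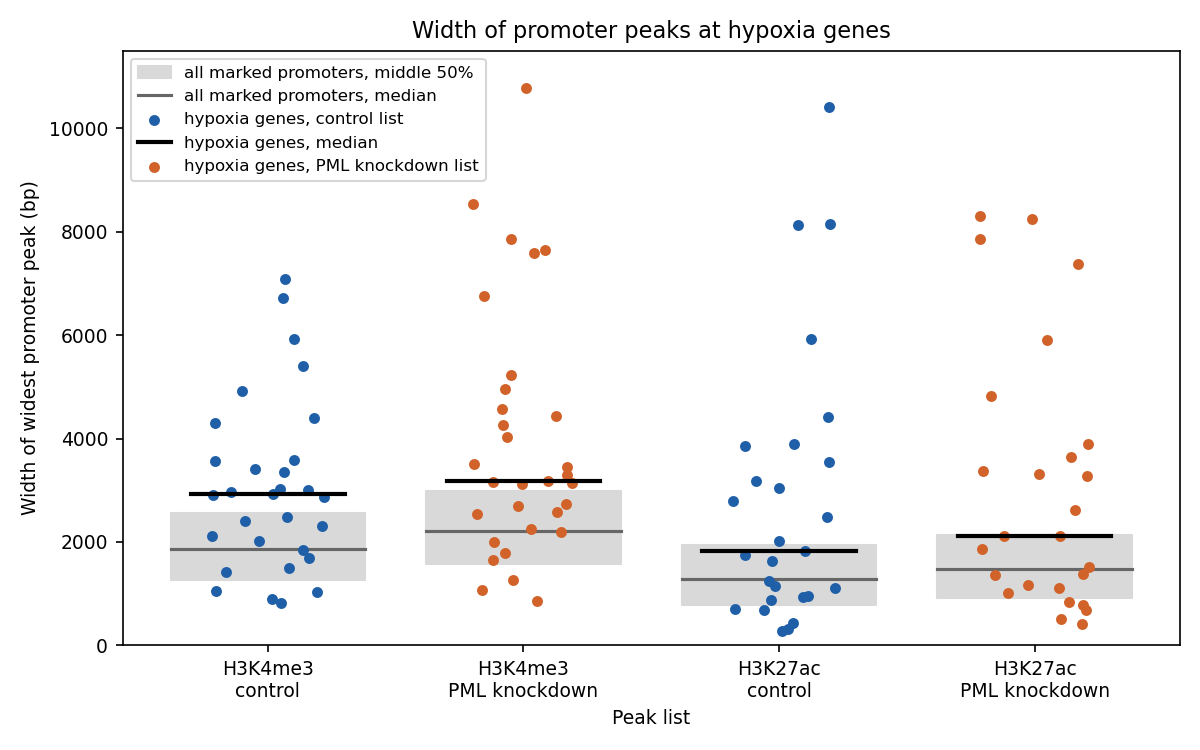
Width in bp of the widest promoter peak of each marked gene (1 point per gene, spread sideways for legibility) in the 4 peak lists, with a black line at the group's median and, for all marked promoters, a grey line at the median in a grey box over the values between the quartiles. The group's median lies above that of all marked promoters in each list, and the highest points are BHLHE40 at 10776 bp for H3K4me3 and SLC2A1 at 10410 bp for H3K27ac.

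H3K27ac peaks around the genes were more numerous than the median over all protein-coding genes in both conditions. Within 50 kb of a start there was a median of 4 control peaks and of 4.5 knockdown peaks per gene, with a range of 1 to 12 in both, and all protein-coding genes had medians of 2 and 3. In all there were 162 control and 157 knockdown peaks, of which 40 and 33 lay in the gene's own promoter and 25 and 24 at promoters of other genes. Peaks without a counterpart in the other condition numbered 11 of the control list (6.79%) and 17 of the knockdown list (10.8%). Over peaks near any protein-coding start the shares were 6.01% and 15%. The group thus lay near the background in control and below it in knockdown, and no test of either difference was made.

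The peaks without a counterpart were weak ones. Their median fold percentile was 9.19 (control) and 13.7 (knockdown), where peaks of the group with a counterpart had 48.8 and 53.1. HIF1A had 10 control and 7 knockdown peaks, and of these 3 control peaks and 1 knockdown peak had no counterpart, all with folds between 2.56 and 3.23. DDIT4 had 12 and 9 peaks, with 3 control peaks lacking a counterpart. NDRG1 had 2 and 4 peaks, with 2 knockdown peaks lacking a counterpart. LOX had 3 peaks and 1 peak. The LOX peak over the start was, at percentile 43.0, the strongest of the 11 control peaks without a counterpart.

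**Figure D4:**
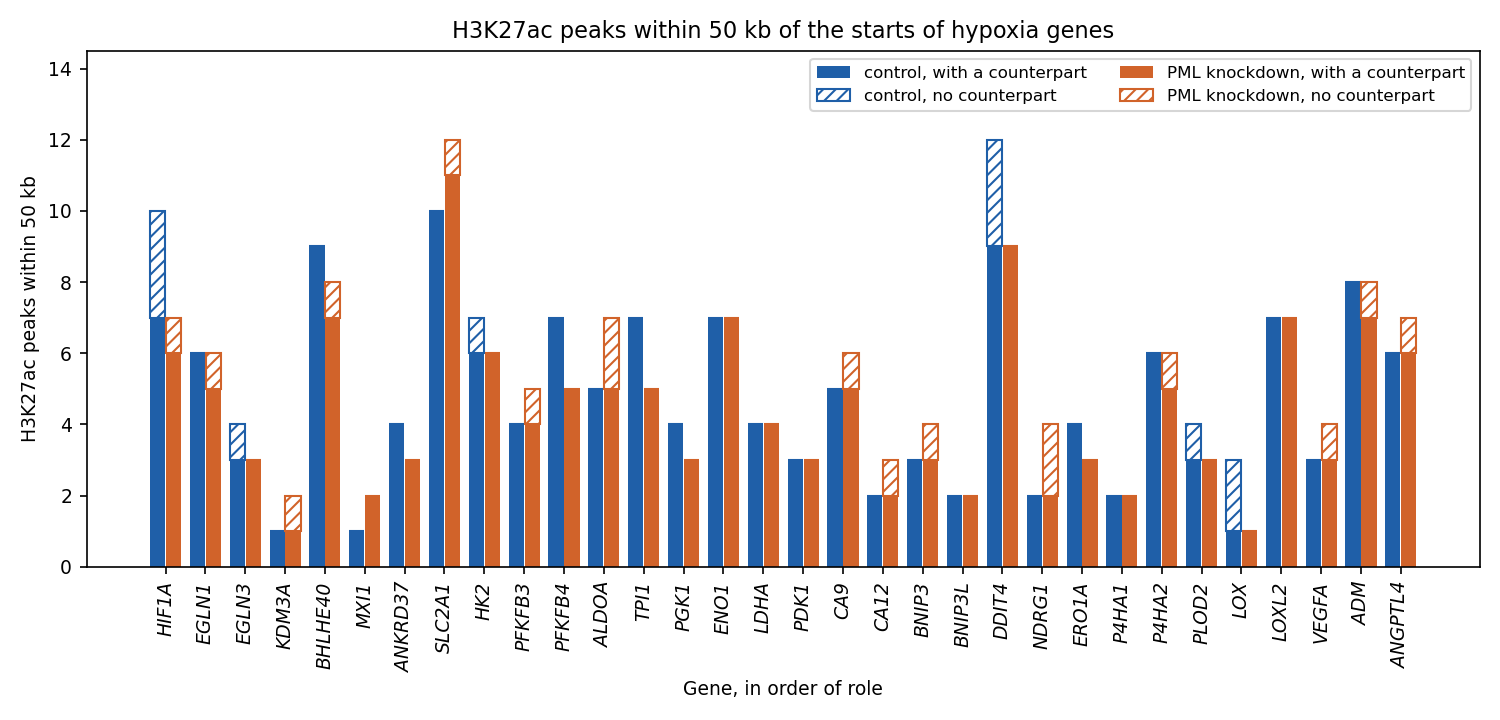
Number of H3K27ac peaks within 50 kb of each gene's start (vertical axis; genes in order of role along the horizontal axis), with blue bars for the control list, orange bars for the knockdown list, and hatching for peaks with no counterpart in the other list. DDIT4 has the most control peaks at 12 and SLC2A1 the most knockdown peaks at 12, and LOX has 3 and 1.

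Core matches were found at many of these acetylated sites. Within 150 bases of the summit, 73 of 162 control peaks (45.1%) and 79 of 157 knockdown peaks (50.3%) held a match. Peaks near any protein-coding start did so in 43.2% and 42.2%, and all peaks of the lists in 37.1% and 36.7%. The summits over the LOX start and 3117 bp inside ANGPTL4 were among those with a match.

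The genes lay almost entirely outside the PML, LMNB1 and H3K9me3 domains. The start of 1 gene, PLOD2, lay in a PML domain, beside 13.1% of all genes. In LMNB1 domains lay 1 control start, PLOD2, and 2 knockdown starts, PLOD2 and LOX, beside 12.4% and 11%. In H3K9me3 domains lay no control start and 1 knockdown start, NDRG1, beside 10% and 8.6%. In any of the 5 lists 3 of 32 starts lay in a domain, where 21.5% of all genes did. An edge is placed no more closely than the bin size of its list, which was 9 kb in the PML list, 17 kb (control) and 22 kb (knockdown) for LMNB1, and 23 kb and 35 kb likewise for H3K9me3.

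PLOD2 (ENSG00000152952.14, chromosome 3, 146035139 to 146163725) combined a deep position in such domains with strong H3K27ac just upstream of its start. Its start lay 1150.8 kb inside a PML domain of 3483 kb, from 143829001 to 147312000, and 2690.8 kb inside LMNB1 domains of 5661 and 5676 kb. Its nearest H3K9me3 domains were 5263.2 and 5216.2 kb away. At the promoter H3K27ac had the folds of 26.5 and 27.2 given above, at percentiles 97.4 and 94.3 of the lists. Those peaks lay wholly upstream of the start, and the promoter peaks on the gene side had folds of 6.18 and 4.96. The H3K4me3 folds stood at percentiles 89.6 and 60.6, where all marked promoters had medians of 72.5 and 78.3. Lists of different targets come from different libraries, so whether both states occur in the same cells was not tested.

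The LOX start lay on different sides of an LMNB1 domain edge in the control and knockdown lists. In the control list the nearest LMNB1 domain ran from 119476001 to 121958000, and the LOX start lay 120.3 kb outside it. In the knockdown list the domain ran from 119460001 to 122232000, its edge 274 kb farther along, and the start lay 153.7 kb inside. The nearest PML domain ended 128.3 kb from the start. Over all genes 0.661% had a start outside the control and inside the knockdown LMNB1 domains, and 2.05% the reverse. At LOX the start was thus inside an LMNB1 domain, and without an H3K27ac peak over it, in the knockdown lists alone. Each list is single, and a relation between the domain edge and the peak was not tested.

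NDRG1 (chromosome 8) lay 286.7 kb from an H3K9me3 domain in the control list, from 133584001 to 134780000. In the knockdown list the domain began at 132860001, with that edge 724 kb farther out, and the NDRG1 start lay 437.3 kb inside it. Of all genes 3.41% moved in this direction and 4.8% in the other. Both active marks remained called at the NDRG1 promoter in the knockdown lists, with the folds given above, so the promoter carried called peaks of both marks while its start lay in a called H3K9me3 domain.

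**Figure D5:**
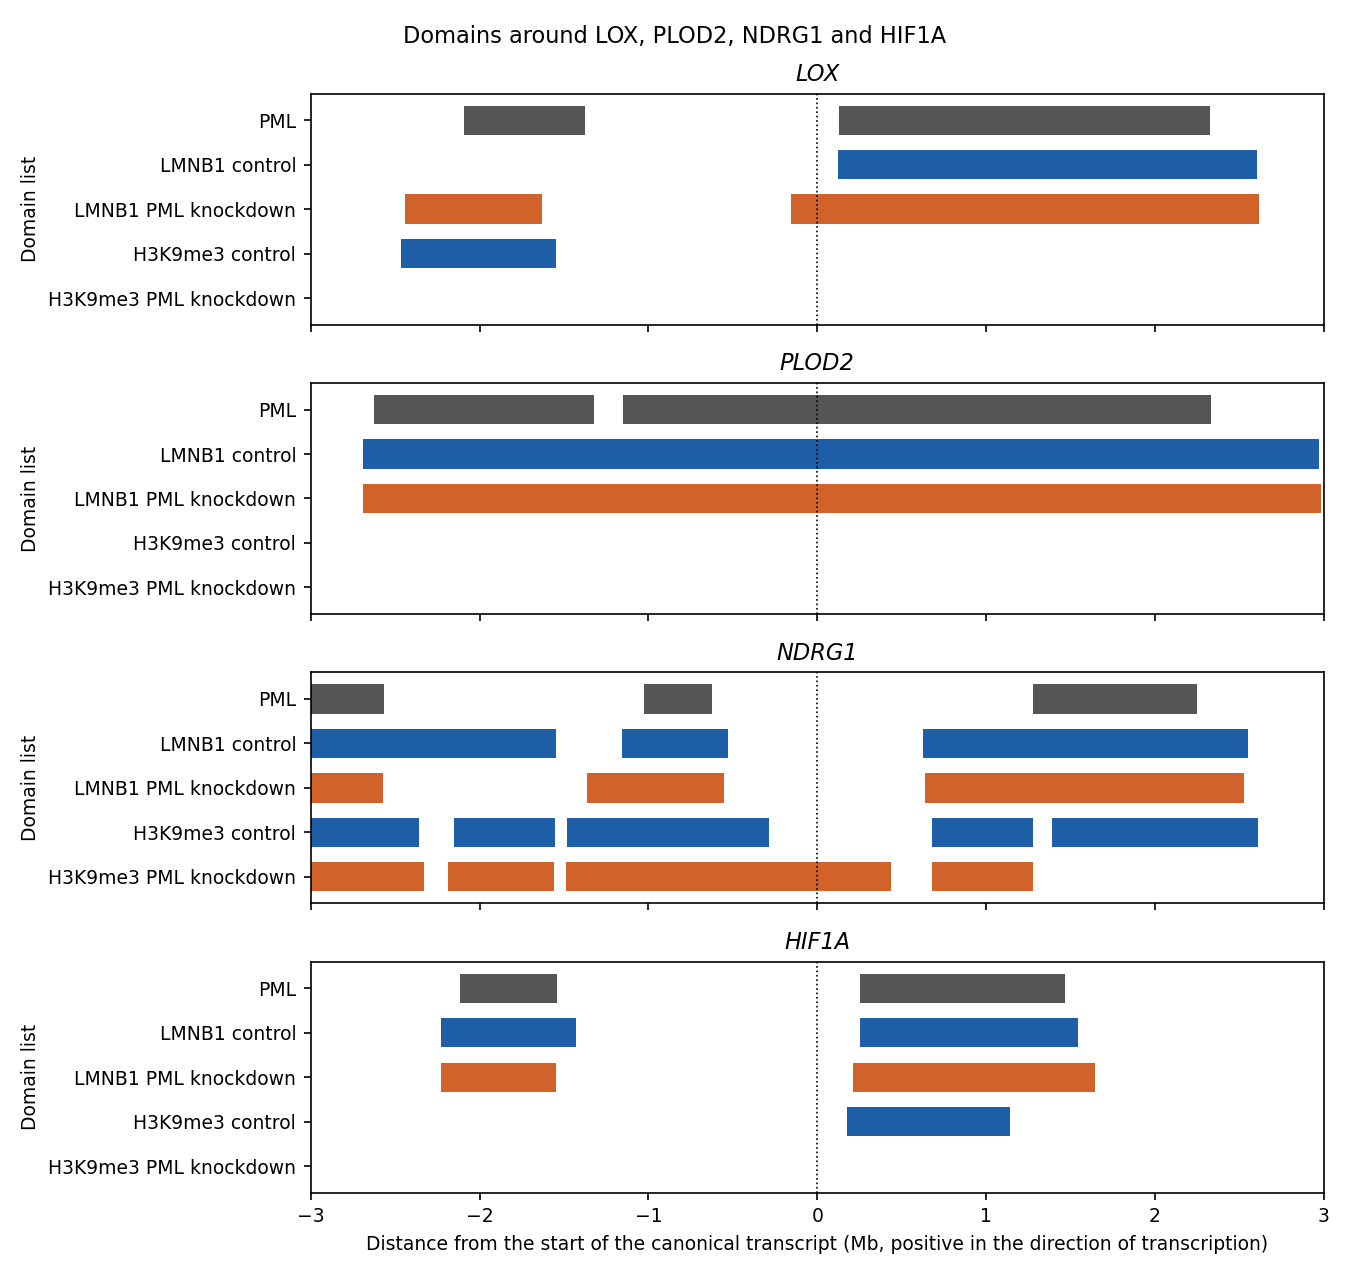
PML, LMNB1 and H3K9me3 domains within 3 Mb of the starts of LOX, PLOD2, NDRG1 and HIF1A (horizontal axis, distance from the start; rows are the 5 domain lists; the vertical line is the start). The knockdown LMNB1 bar covers the LOX start and the control bar ends 120.3 kb from it, and the PML and both LMNB1 bars cover PLOD2.

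HIF1A itself lay outside every domain, 251.5 kb from the nearest PML domain and 252.5 and 212.5 kb from the nearest LMNB1 domains. The distance to the nearest H3K9me3 domain was 174.5 kb in control cells, against 4034.5 kb in the knockdown list, where the neighbouring domain was not called. Genome-wide the knockdown list held fewer H3K9me3 domains, 281, than the control list, 430. Starts outside the domains had median distances of 2364.5 kb to PML domains, 2078.8 and 2619.3 kb to LMNB1 domains and 1540.8 and 1536.8 kb to H3K9me3 domains. Over all genes these were 1639 kb, 1873 and 2113 kb, and 1546 and 2464 kb. PGK1 has no distance to PML, since that list holds no domain on chromosome X.

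Most regulators of the pathway carried both marks. Of 14 regulators (ARNT, ARNT2, EPAS1, HIF3A, VHL, ELOB, ELOC, CUL2, RBX1, EGLN2, HIF1AN, EP300, CREBBP and CITED2), 13 had H3K4me3 in both lists, and 10 and 12 had H3K27ac, beside the 61.8%, 63.7%, 50.8% and 53.7% of all protein-coding genes. HIF3A, a further alpha subunit, had no promoter peak, and ARNT2, a paralogue of ARNT, had H3K4me3 without H3K27ac. ARNT, the partner of HIF1A, had H3K4me3 folds of 8.88 and 24.3 and weak H3K27ac folds of 1.96 and 3.43. VHL, which directs HIF1A to destruction, had H3K4me3 folds of 7.999 and 10.8 and H3K27ac folds of 2.80 and 3.15. CITED2, which competes with HIF1A for the coactivators EP300 and CREBBP, had H3K4me3 folds of 33.1 and 93.5 and H3K27ac folds of 20.2 and 36.0.

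EPAS1, which encodes HIF2A, had no H3K27ac promoter peak in control cells and 2 in the knockdown list, the stronger with a fold of 5.87. It did not count as marked in 1 list only, because of an overlap with a control peak outside the promoter. CREBBP had a narrow knockdown peak of 323 bp with a fold of 4.14 and no control peak. It was the single regulator of 14 with H3K27ac in the knockdown list only, beside 3.24% of all genes. Of the regulators ARNT2 alone started in a domain, that of H3K9me3 in the knockdown list.

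A second list held 39 other hypoxia targets. H3K4me3 marked 34 of them in both lists (61.8% and 63.7% of all genes), and H3K27ac marked 23 and 26 (50.8% and 53.7% of all genes). INSIG2, which restrains cholesterol synthesis, AK4, a mitochondrial adenylate kinase, and PPP1R3C, which promotes glycogen storage, had H3K27ac in the knockdown list only, with folds of 3.72, 2.62 and 3.51. These 3 of 39 stand beside 3.24% of all genes. ALDOC, STC2, NDUFA4L2, COX4I2 and EPO had no promoter peak of either mark. GPI, PFKL, ENO2, VLDLR, STC1, RORA, IGFBP3 and ZNF395 had H3K4me3 without H3K27ac in both conditions. GBE1, the glycogen branching enzyme, resembled PLOD2 in that it started in the PML domains and in both LMNB1 lists, with H3K27ac folds of 25.4 and 35.1. RORA started in the control LMNB1 domains and in both H3K9me3 lists, and STC2 in those of H3K9me3 in the knockdown list. In the table of promoters 24 of 32 matched genes of this list held a core match, beside 56.2% of all promoters.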

How the data were processed

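MDA-MB-231 chromatin was crosslinked with disuccinimidyl glutarate followed by formaldehyde and sonicated, per the labels' protocols. The submitters' processing notes name hg38, MACS2 2.2.7.1, deepTools, Picard 1.104 and BWA 0.7.12-r1039, with no role for each. The deposited peak lists give a fold enrichment, a ratio, and a -log10 q-value per peak, and their peak names join replicates 1 and 2. The deposited domain lists give a score per domain, whose unit and pooling are not given in the sources used here, and only their file names point to EDD as the caller. Reading ct and pml as control and PML knockdown is an assumption. Depth is unknown, so no precision from counts can be given.

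Genes and canonical starts came from GENCODE 44. Promoters had 1 kb on either side, H3K27ac was also counted within 50 kb, and 1 bp of overlap counted as shared. Overlaps were computed with Python 3.11.15, numpy 2.4.6, pandas 2.3.3 and pysam 0.24.0, tested on simulated data and checked with bedtools 2.31.1, and figures used matplotlib 3.10.9. All listed members are named. Of the other pathway genes the rule names those marked in 1 list only, those without a peak and those in domains, and ARNT, VHL, CITED2 and EPAS1 were added after their values were seen. The members and gene lists were chosen with earlier results of these data known. With 1 list per target and condition no test was made. Shares over 19970 genes stand beside the counts of marked promoters in the whole group and both pathway lists, and of the group's starts in domains. For role classes the shares per mark are given once, at the first class. Alternatives were promoters of 500 and 2500 bp, windows of 25 and 100 kb, any annotated start, a -log10 q of at least 5, equal list lengths, other sharing rules, and domains filtered at 500 kb, joined within 100 kb or met by any base of the gene.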

Additional observations from a re-analysis of the deposited data

How the results depend on the processing

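No paired analysis was possible because each list joins its replicates and holds no value per replicate. For the same reason no replicate could be left out. Over 14 settings, 1 of them added after the data were seen, 121 values were recomputed, and 108 stayed within 1.5 times the reported value. The other 13 are given here. For H3K27ac in the control promoter only, the count rose from 0 to 1, LOX, with promoters of 500 bp, with a -log10 q of at least 5 and with presence in the promoter alone. For H3K27ac in the knockdown promoter only it rose from 0 to 1, BNIP3, with a -log10 q of at least 5, and near peaks without a counterpart then fell from 11 to 7 in the control list. Within 25 kb there were 104 control peaks, 6 of them without a counterpart, and 103 knockdown peaks, 11 without. Within 100 kb there were 260 control peaks, 20 without a counterpart, and 254 knockdown peaks, 30 without. These 2 windows change the sequence searched by construction, and the cause of the other shifts was not tested. No depth is known, so a missing peak cannot be told apart from one below the threshold.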
